A study of Homo sapiens with 8 samples.

Results

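The genes described here are 10 writers, erasers and helpers of 2 repressive chromatin marks, DNA methylation and trimethylation of lysine 27 on histone H3 (H3K27me3), in EA.hy926 cells with a deleted enhancer. They are UHRF1, DNMT1, HELLS, DNMT3A, DNMT3B, TET2 and TET3 on the side of DNA methylation, and EZH2, EED and SUZ12 as the core of Polycomb repressive complex 2 (PRC2). The genes were chosen by symbol, and of the transcripts listed for a symbol the most abundant was kept, which gave 10 of the 27946 genes in the deposited table, called members below. EA.hy926 is a hybrid line made by fusing umbilical vein endothelial cells with a lung carcinoma line. RNA was measured in 2 control libraries, in 3 clonal lines in which CRISPR/Cas9 ribonucleoprotein had removed the enhancer E2 (ΔE2), and in 3 clonal lines without SE12313-b (ΔSE12313-b), a neighbouring constituent of the same super-enhancer that was inactive in the reporter assays of the study and served as its negative control deletion. Each clone was grown from a single cell, and all cells were kept in the same serum-containing medium. The labels name the control cells no further than as controls and list all 8 samples as clones, and nothing there says that the 2 control libraries came from separate cultures, so the p-values measure the spread between these libraries. For its growth assay the study used a control line that had received guide RNAs alongside the clones, and whether the control RNA is from it, or from cells cloned like the deletion lines, is not stated, so an effect of cloning and one of the deletions cannot be told apart.

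DNMT1 is the maintenance methyltransferase that copies CG methylation onto the new strand after replication. UHRF1 recognizes the hemimethylated site and brings DNMT1 to it, and HELLS (LSH) is a helicase of the SNF2 family that lets methylation reach packed chromatin. DNMT3A and DNMT3B set methylation de novo, whereas TET2 and TET3 oxidize 5-methylcytosine as a step of its removal. In PRC2, EZH2 carries the catalytic domain that methylates H3K27, EED binds the finished mark and SUZ12 holds the complex together. EZH1 is the alternative catalytic subunit, known for its use in cells that do not divide. The values below are mRNA levels, and neither protein nor the marks themselves were measured in these libraries.

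The libraries held between 12067556 and 19101112 reads, and the reads on a member ranged from 63 for DNMT3B in a control library to 5505 for DNMT1 in a ΔE2 clone. Of 11 endothelial markers, 9 reached an FPKM of 0.5 in some library, among them CDH5 at 64.3 to 141 FPKM, while CLDN5 was listed at 0 in every library and KDR stayed at or under 0.292 FPKM. The summed FPKM of these markers was 349 and 350 in the control libraries, and its range was 347 to 505 over the ΔE2 clones and 349 to 496 over the ΔSE12313-b clones. That sum is mostly ENG and CDH5, and within it PECAM1 went from a mean of 5.98 to 13.9 and 26.0 FPKM, ERG from 7.68 to 18.7 and 16.6, and VWF from 1.92 to 0.537 and 0.515. Of 7 epithelial markers, 4 reached 0.5 FPKM, and their sum moved with the deletions, from 361 to 363 FPKM in the controls to 1084 to 1210 in ΔE2 and 811 to 1069 in ΔSE12313-b, carried by KRT7, KRT8 and KRT18, while EPCAM (mean 0.399 FPKM in the controls, 0.186 in ΔE2 and 0.0497 in ΔSE12313-b) and CLDN4 (0.329, 0.0417 and 0.153) had lower means in the clones and CDH1 was at 0 throughout. None of 9 leukocyte and fibroblast markers reached 0.5 FPKM in any library. The part of the keratin difference in the results below was not tested. In RNA from whole cultures, a change in the share of cells that express a gene and a change in its mRNA per cell cannot be told apart.

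All 10 genes passed the filter on low values (0.5 FPKM in at least 2 libraries) and were tested among 13790 genes with limma on log2(FPKM + 0.1), with Benjamini-Hochberg adjustment. A differentially expressed gene (DEG) had an adjusted p under 0.05 and at least a 2-fold change, and "rose" or "fell" below means an adjusted p under 0.05 with or without that fold. In ΔE2, 6 of the 10 genes were upregulated DEGs, where 11.2% of all genes tested were, and none was downregulated, where 8.36% were. In ΔSE12313-b, 5 of the 10 were upregulated DEGs against 14.7% of all genes, and none was downregulated against 7.83%. By adjusted p alone, 8 members differed from control in ΔE2 and 7 in ΔSE12313-b, where 54.1% and 59.4% of all genes did, so these counts lie closer to the background than the counts with the 2-fold limit. The median log2 fold change of the 10 genes was 1.06 in ΔE2 and 0.96 in ΔSE12313-b, beside 0.14 and 0.27 over all genes tested. Because these medians are not at 0, the change relative to the median gene is given where it alters a reading. Centring each library on its median turned 1544 higher and 1153 lower DEGs of ΔE2 into 1170 and 1464, and 2032 and 1080 of ΔSE12313-b into 1201 and 1570.

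**Figure D1:**
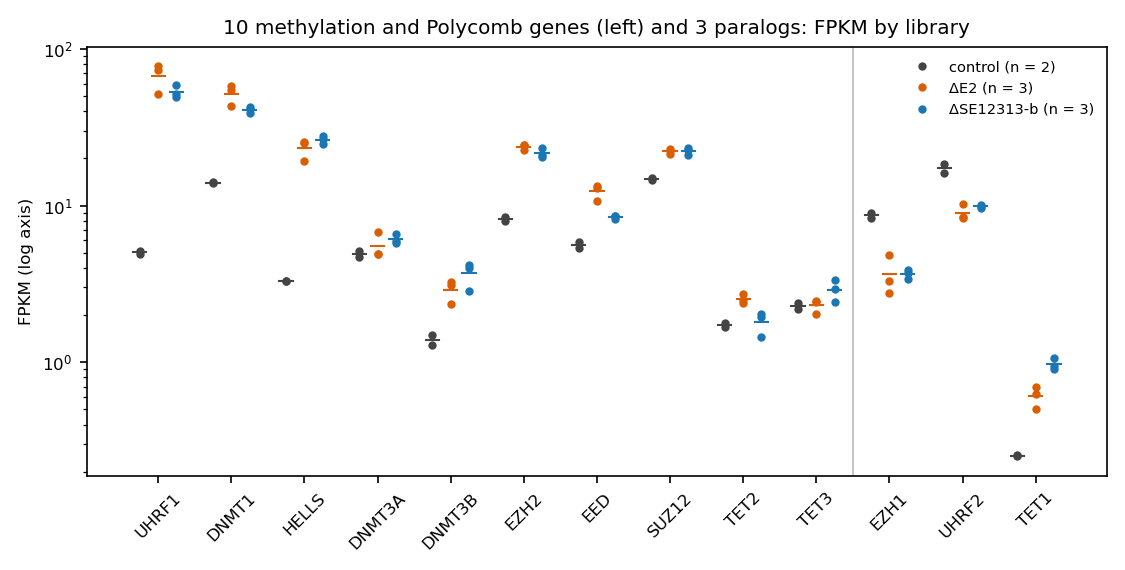
FPKM of the 10 genes and of 3 paralogs in each library on a log axis, with points for libraries and bars for group means (control n = 2, ΔE2 n = 3, ΔSE12313-b n = 3). UHRF1, DNMT1, HELLS and EZH2 lie higher in all 6 clones than in both controls, EZH1 and UHRF2 lie lower, and DNMT3A and TET3 sit within a narrow band.

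In the control libraries SUZ12 (14.8 FPKM ± 0.288, SD, n = 2) and DNMT1 (13.99 ± 0.0707) were the most abundant of the 10 genes per length of transcript, followed by EZH2 at 8.19 ± 0.393 and EED at 5.58 ± 0.363. UHRF1 and DNMT3A had overlapping control values near 5 FPKM, and HELLS, TET3, TET2 and DNMT3B lay below them in that order. The order was different in the clones. UHRF1 led in ΔE2 with DNMT1 next, their libraries overlapping, and in ΔSE12313-b it led without overlap. EZH2, HELLS and SUZ12 overlapped each other in ΔE2 at 19.4 to 25.5 FPKM, while in ΔSE12313-b HELLS stood above SUZ12 and EZH2, which overlapped.

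The promoters of the genes with the largest changes are shown first, since these genes rose together while paralogs of them fell. The sequences are RefSeq's, on GRCh38.p14, each covering 120 bases before the annotated start and 15 after it, written 5′ to 3′ along the gene. Capitals mark a 7-letter E2F-type motif, written TTCCCGC in its first form, with the further forms TTGGCGC and then TTCGCGC and lastly TTGCCGC, on either strand. Such motifs are known from genes switched on at the entry to S phase.
UHRF1 (chr19:4909381-4909515, plus strand): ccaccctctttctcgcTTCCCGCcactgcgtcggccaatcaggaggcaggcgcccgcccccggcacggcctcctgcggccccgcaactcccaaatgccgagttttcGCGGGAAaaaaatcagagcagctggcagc
DNMT1 (chr19:10194939-10195073, minus strand): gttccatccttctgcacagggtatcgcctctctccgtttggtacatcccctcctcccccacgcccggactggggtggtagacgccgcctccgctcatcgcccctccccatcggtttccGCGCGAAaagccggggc
HELLS (chr10:94545668-94545802, plus strand): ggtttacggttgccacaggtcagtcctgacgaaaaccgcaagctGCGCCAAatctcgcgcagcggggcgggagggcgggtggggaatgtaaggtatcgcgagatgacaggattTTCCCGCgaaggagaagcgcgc
EZH2 (chr7:148884277-148884411, minus strand): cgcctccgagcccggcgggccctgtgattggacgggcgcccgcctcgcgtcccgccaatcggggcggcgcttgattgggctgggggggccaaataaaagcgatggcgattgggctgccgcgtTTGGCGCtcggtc
UHRF2 (chr9:6413079-6413213, plus strand): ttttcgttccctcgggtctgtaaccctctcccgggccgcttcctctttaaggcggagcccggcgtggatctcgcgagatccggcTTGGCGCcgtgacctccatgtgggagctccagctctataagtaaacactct
EZH1 (chr17:42745026-42745160, minus strand): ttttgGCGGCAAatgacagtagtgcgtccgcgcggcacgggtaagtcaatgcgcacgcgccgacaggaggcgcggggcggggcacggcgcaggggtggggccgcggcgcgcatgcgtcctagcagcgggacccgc
The first 4 genes rose in both deletions and the last 2, the paralogs of UHRF1 and EZH2, fell. Each stretch was taken from the first annotated window of its gene that holds the motif, so all 6 hold it by that choice. Among these 6 genes the motif was present both in genes that rose and in genes that fell. In windows of 300 bases around the start, 6 of the 10 genes (UHRF1, DNMT1, HELLS, EZH2, SUZ12 and TET3) held the motif in at least 1 annotated promoter, and DNMT3A, DNMT3B, EED and TET2 did not. Of all windows 12.97% held it, as did 15.27% of all genes with a window in the table and 24.85% of the 9752 tested genes that could be matched. Of the S phase list described below, 30 genes were matched and 26 held it. UHRF1 has 3 annotated windows in the table, 2 of them with the motif and 1 without, and EZH2 has 2, the first with the motif and the other without. The deposited values do not tell which start was used. A match describes letters and not a bound site.

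UHRF1 (NM_001290052, hg19 chr19:4910379-4962165, plus strand) had the largest rise of the 10 genes. The control libraries held 5.12 and 4.93 FPKM, the ΔE2 clones 72.9, 51.1 and 77.03, and the ΔSE12313-b clones 58.7, 51.2 and 49.2. Every clone lay above both controls, and the deletions overlapped. The change was 12.9-fold in ΔE2 (log2 fold change 3.69 ± 0.17, SE, limma adjusted p = 2.09e-06) and 10.3-fold in ΔSE12313-b (3.37 ± 0.17, adjusted p = 3.01e-06), at the 98.9 and 98.5 percentile of all genes tested. Its 5 listed transcripts gave log2 fold changes between 3.69 and 3.71 in ΔE2.

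HELLS (NM_001289069, hg19 chr10:96305524-96361856, plus strand) followed UHRF1 in size of change. It stood at 3.28 and 3.31 FPKM in the controls, at 24.9, 19.4 and 25.5 in ΔE2, and at 26.6, 27.7 and 24.7 in ΔSE12313-b. The controls differed by little and every clone lay several-fold above them. HELLS rose 6.83-fold in ΔE2 (log2 2.77 ± 0.13, limma adjusted p = 1.88e-06) and 7.78-fold in ΔSE12313-b (2.96 ± 0.13, adjusted p = 1.29e-06).

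DNMT1 (NM_001318730, hg19 chr19:10244020-10305730, minus strand) had 13.94 and 14.04 FPKM in the controls, 54.4, 43.0 and 57.9 in ΔE2, and 42.8, 41.2 and 38.9 in ΔSE12313-b. All clones exceeded the controls, and the lowest ΔE2 clone stood just above the highest ΔSE12313-b clone. The rise was 3.65-fold in ΔE2 (log2 1.87 ± 0.12, limma adjusted p = 1.40e-05) and 2.91-fold in ΔSE12313-b (1.54 ± 0.12, adjusted p = 2.91e-05). The 3 genes of maintenance methylation thus rose by unequal factors. The ratio of UHRF1 to DNMT1, both in FPKM, went from 0.359 ± 0.0112 in the controls to 1.29 ± 0.0855 in ΔE2 and 1.29 ± 0.0684 in ΔSE12313-b, a 3.59-fold higher ratio in the 6 clones.

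The de novo enzymes were lower in level and differed from each other. DNMT3B (NM_175849, hg19 chr20:31350191-31397162, plus strand), listed at 1.49 and 1.28 FPKM in the controls, reached 3.09, 2.37 and 3.27 in ΔE2 and 4.01, 4.19 and 2.86 in ΔSE12313-b. No clone fell into the control range. The change was 2.01-fold in ΔE2 (log2 1.01 ± 0.21, limma adjusted p = 0.00428) and 2.52-fold in ΔSE12313-b (1.33 ± 0.21, adjusted p = 0.000882). The first lies at the 2-fold limit and dropped under it when each library was centred (log2 0.85), without control replicate 2 (log2 0.91), without ΔE2 replicate 1 (0.96) or without ΔE2 replicate 3 (0.92), and both fell under it with a pseudocount of 1 (0.71 and 0.96).

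DNMT3A (NM_153759, hg19 chr2:25455830-25475184, minus strand) had 4.72 and 5.15 FPKM in the controls, 4.88, 6.82 and 4.91 in ΔE2, and 5.98, 5.74 and 6.60 in ΔSE12313-b. The ΔE2 clones overlapped the controls, 2 of them lying within the control range. The log2 difference was 0.15 ± 0.16 in ΔE2 (limma adjusted p = 0.461) and 0.30 ± 0.16 in ΔSE12313-b (adjusted p = 0.134), and the ΔE2 value turned negative when each library was centred (−0.01). Across its 7 transcripts the ΔE2 value ran from −0.31 to 0.16 and the ΔSE12313-b value from −0.10 to 0.30. The ratio of DNMT3B to DNMT3A was 0.283 ± 0.0472 in the controls, 0.549 ± 0.175 in ΔE2 and 0.611 ± 0.156 in ΔSE12313-b.

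**Figure D2:**
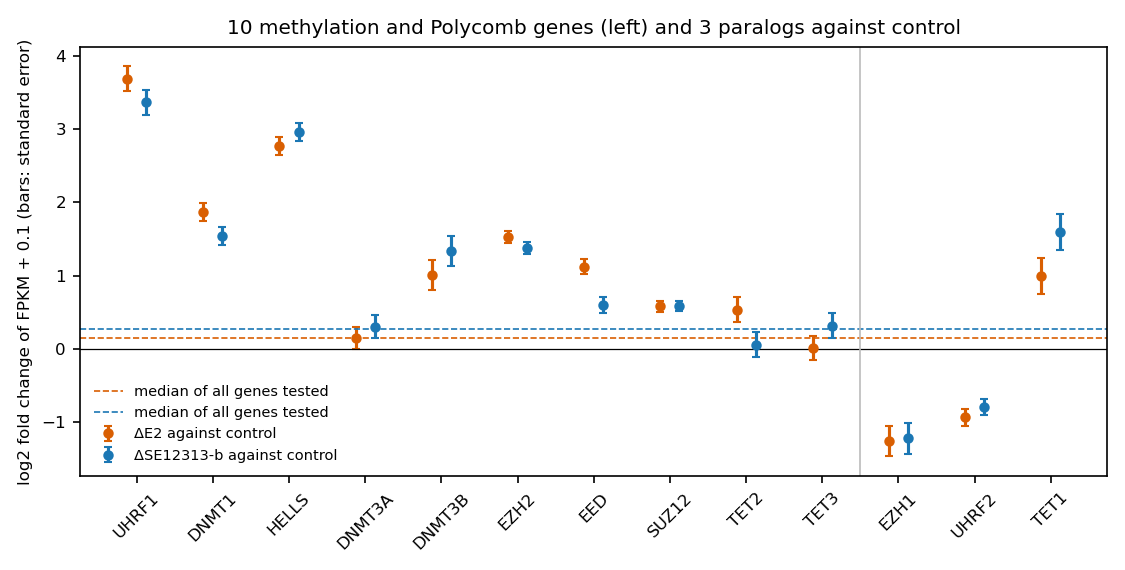
Log2 fold change of FPKM + 0.1 against control for the 10 genes and 3 paralogs, with bars of 1 standard error from limma and dashed lines at the median of all genes tested (0.14 in ΔE2, 0.27 in ΔSE12313-b). UHRF1, HELLS, DNMT1 and EZH2 stand far above the dashed lines in both deletions, and EED is the member with the widest gap between the deletions relative to its bars.

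Among the 3 core genes of PRC2, the catalytic subunit rose most. EZH2 (NM_001203248, hg19 chr7:148504464-148581441, minus strand) had 8.47 and 7.92 FPKM in the controls, 24.4, 22.6 and 24.4 in ΔE2, and 23.2, 20.3 and 20.9 in ΔSE12313-b. Its clones were close to each other in both deletions and far from the controls. EZH2 rose 2.88-fold in ΔE2 (log2 1.53 ± 0.08, limma adjusted p = 5.45e-06) and 2.60-fold in ΔSE12313-b (1.38 ± 0.08, adjusted p = 7.98e-06).

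EED (NM_003797, hg19 chr11:85955426-85989852, plus strand) separated all 3 groups. The controls had 5.32 and 5.83 FPKM, the ΔE2 clones 12.9, 10.8 and 13.3, and the ΔSE12313-b clones 8.58, 8.18 and 8.60, with no overlap between any pair of groups. EED rose 2.18-fold in ΔE2 (log2 1.12 ± 0.11, limma adjusted p = 9.82e-05) and 1.51-fold in ΔSE12313-b (0.59 ± 0.11, adjusted p = 0.00203). The ΔE2 change was under 2-fold when each library was centred (log2 0.96) and with quantile normalization (0.95). EED shares 221 exonic bases with a long non-coding RNA on the opposite strand in the GENCODE annotation, and the handling of strand behind the FPKM is not given in the sources used here.

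SUZ12 (NM_015355, hg19 chr17:30264029-30328064, plus strand) had 14.57 and 14.98 FPKM in the controls, 22.2, 21.3 and 22.8 in ΔE2, and 23.2, 22.5 and 21.0 in ΔSE12313-b. All clones lay above the controls and the deletions overlapped throughout. SUZ12 rose by a like amount in both, 1.49-fold in ΔE2 (log2 0.58 ± 0.07, limma adjusted p = 0.000392) and by log2 0.59 in ΔSE12313-b (± 0.07, adjusted p = 0.000295). Relative to the median gene, the log2 differences were 0.44 and 0.31, and with quantile normalization the ΔSE12313-b difference was 0.18 with an adjusted p of 0.0541. The table also lists the pseudogene SUZ12P1 at 9.78 to 16.2 FPKM, so reads that the 2 copies share make the level of SUZ12 uncertain.

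The ratios between the mRNA levels of PRC2 subunits differed between control cells and clones. The ratio of EZH2 to SUZ12 in FPKM was 0.555 ± 0.0374 in the controls, 1.07 ± 0.0184 in ΔE2 and 0.967 ± 0.0531 in ΔSE12313-b, 1.84-fold higher in the clones. This ratio carries the uncertainty in the level of SUZ12 that comes from SUZ12P1. EZH2 to EED went from 1.47 ± 0.167 to 1.94 ± 0.143 and 2.54 ± 0.144, 1.51-fold higher in the clones. The ratios were chosen with earlier results of these data known, and the test below takes the clones of both deletions as 1 group. Of the 6 ratios computed, 5 (EZH2/EZH1, EZH2/EED, EZH2/SUZ12, UHRF1/DNMT1 and DNMT3B/DNMT3A) were higher in 6 of 6 clones than in both controls, with an exact two-sided permutation p of 0.0357 each and 0.0429 after Benjamini-Hochberg adjustment over the 6 ratios. This is the smallest p that 28 splits of 6 clones and 2 controls allow, and without either control library p cannot go below 0.143. As the ratios were chosen with the changes of these genes known, and several share EZH2, these p-values are no support independent of the fold changes.

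**Figure D3:**
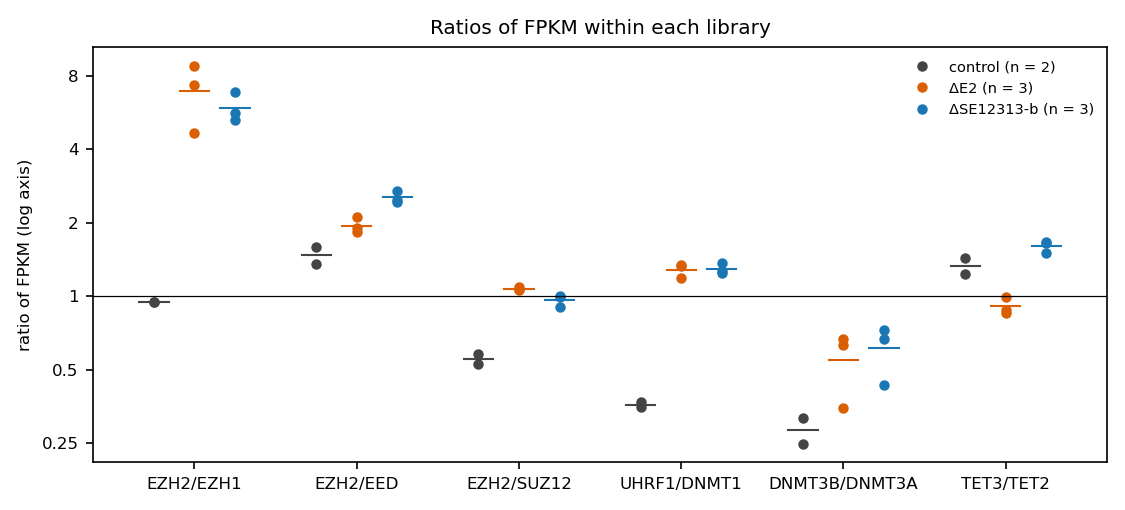
Ratios of FPKM within each library on a log axis, with points for libraries and bars for group means (control n = 2, ΔE2 n = 3, ΔSE12313-b n = 3). The ratio of EZH2 to EZH1 moves from just under 1 in both controls to 4.66 or more in every clone, and the ratio of TET3 to TET2 lies on opposite sides of the controls in the deletions.

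EZH1 and UHRF2 moved against their paralogs EZH2 and UHRF1, whereas TET1, described with the TET genes, rose. EZH1 (hg19 chr17:40852293-40897114, minus strand) had 8.99 and 8.38 FPKM in the controls, 3.32, 4.86 and 2.78 in ΔE2, and 3.396, 3.87 and 3.71 in ΔSE12313-b. It fell in both deletions, 2.40-fold lower in ΔE2 (log2 −1.26 ± 0.21, limma adjusted p = 0.00147) and 2.34-fold lower in ΔSE12313-b (−1.23 ± 0.21, adjusted p = 0.00144). EZH1 and EZH2 were thus near equal per length in the controls, at a ratio of 0.944 ± 0.000901, while EZH2 exceeded EZH1 by 6.92 ± 2.09 times in ΔE2 and 5.91 ± 0.819 times in ΔSE12313-b.

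UHRF2, a relative of UHRF1 that also binds modified cytosine, was the more abundant of the pair in the controls with 16.1 and 18.4 FPKM. It had 8.27, 10.3 and 8.42 FPKM in ΔE2 and 9.63, 9.89 and 10.1 in ΔSE12313-b, below both controls in every clone. It fell by 0.94 on the log2 scale in ΔE2 (limma adjusted p = 0.000316) and by 0.80 in ΔSE12313-b (adjusted p = 0.000587), short of 2-fold. Relative to the median gene, the log2 differences were −1.08 and −1.07, past 2-fold in both. DNMT3L, the catalytically inactive partner of the de novo enzymes, was listed at 0 in 7 libraries and at 0.031 FPKM in the other, and it was not tested.

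The TET genes were low in every library. TET2 (NM_001127208, hg19 chr4:106067842-106200960, plus strand) had 1.78 and 1.67 FPKM in the controls, 2.49, 2.40 and 2.74 in ΔE2, and 1.95, 2.05 and 1.46 in ΔSE12313-b. The ΔE2 clones stood above all other libraries, and the ΔSE12313-b clones spanned the controls. TET2 rose 1.45-fold in ΔE2 (log2 0.53 ± 0.17, limma adjusted p = 0.0293), while the log2 difference was 0.06 ± 0.17 in ΔSE12313-b (adjusted p = 0.791). The ΔE2 adjusted p rose to 0.0956 when each library was centred, and to 0.0911 and 0.138 without control replicate 1 or 2. The second TET2 transcript of the table had a log2 difference of 0.24 in ΔE2.

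TET3 (NM_001287491, hg19 chr2:74213531-74335302, plus strand) had 2.20 and 2.39 FPKM in the controls, 2.47, 2.04 and 2.41 in ΔE2, and 2.94, 3.37 and 2.42 in ΔSE12313-b. The ΔE2 clones spread around the controls, and the ΔSE12313-b clones began just above them. Neither difference passed the test (log2 0.0035 ± 0.16, limma adjusted p = 0.988, and 0.32 ± 0.16, adjusted p = 0.130). The ratio of TET3 to TET2 was 1.33 ± 0.138 in the controls, 0.908 ± 0.0741 in ΔE2 and 1.61 ± 0.0859 in ΔSE12313-b, and over all 6 clones it did not pass the exact permutation test (p = 0.679). That test pools ΔE2 clones lying below both controls with ΔSE12313-b clones lying above them, so it cannot tell whether the ratio changed in either deletion. TET1, whose controls held 0.255 and 0.251 FPKM, had 0.624, 0.696 and 0.506 in ΔE2 and 1.06, 0.945 and 0.901 in ΔSE12313-b. It rose 1.99-fold (log2 1.00 ± 0.24, limma adjusted p = 0.00981) and 3.02-fold (1.59 ± 0.24, adjusted p = 0.000831) on the log2(FPKM + 0.1) scale, which understates changes at such levels, and with a pseudocount of 1 the second was under 2-fold (log2 0.65). Both controls were under 0.5 FPKM, so TET1 passed the filter only through the clones, where it was high.

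The deletions were also set directly against each other, without the control libraries. None of the 10 genes was a DEG in this contrast, where 1.6% of all genes were higher and 2.63% lower in ΔE2, and 1 member, EED, passed an adjusted p of 0.05, where 26% of all genes did. EED was higher in ΔE2 by 0.53 ± 0.10 on the log2 scale (limma adjusted p = 0.00669). DNMT1 and TET2 did not overlap between the deletions either, but their differences of 0.33 (adjusted p = 0.0634) and 0.48 (adjusted p = 0.0532) did not pass the test. The remaining members lay between −0.32 for DNMT3B (adjusted p = 0.235) and 0.32 for UHRF1 (adjusted p = 0.166), and SUZ12 was at −0.01.

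Genes near EED on chromosome 11 leaned the same way. Of 79 tested genes within 10 Mb on either side, 72 lay above the all-gene median of this contrast (−0.11), with a median of 0.42, and EED stood at the 63.3 percentile among them. Around TET2 the median over 47 genes was 0.23, with 41 above the all-gene median. Around HELLS the 153 neighbours had a median of 0.81 in ΔSE12313-b against control, beside 0.27 over all genes, and of −0.49 between the deletions, with HELLS itself at −0.19. HELLS was at the 98.0 percentile of its neighbours in both deletions against control. Around TET1 the median over 90 genes, relative to the all-gene median, was 0.47 in ΔSE12313-b against control and −0.35 between the deletions. The part of these regional differences in the values of EED, TET2, HELLS and TET1 was not tested, and copy number was not measured here.

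**Figure D4:**
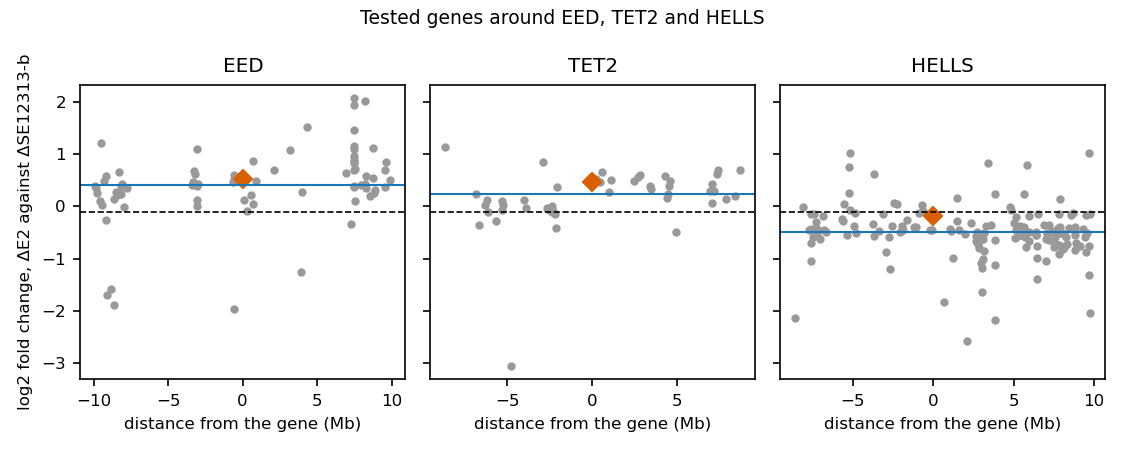
Log2 fold change of ΔE2 against ΔSE12313-b for the tested genes within 10 Mb of EED, TET2 and HELLS, by distance from the gene in Mb. Grey points are neighbours, the orange diamond is the gene itself, the blue line is the median of the neighbours (0.42, 0.23 and −0.49) and the dashed line that of all genes tested (−0.11), and EED lies close to its blue line.

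The clones of a deletion were not alike. ΔE2 replicate 2 was the lowest of its group for 9 of the 10 genes and for 40 of 41 S phase genes, and DNMT3A was its exception, at 6.82 FPKM. ΔSE12313-b replicate 3 was the lowest of its group for 7 of the 10 genes and for 28 of 41 S phase genes. How often each library was lowest over all genes tested was not counted. The median log2 ratio of all genes tested to the control mean was 0.12, 0.15 and 0.17 in the ΔE2 clones. In the ΔSE12313-b clones it was 0.29, 0.27 and 0.28. The coefficient of variation in ΔE2 was 20.8% for UHRF1, 15.05% for DNMT1 and 14.6% for HELLS, and 4.16% for EZH2 and 3.44% for SUZ12. In ΔSE12313-b it was highest for DNMT3B (19.5%) and TET2 (17.4%).

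UHRF1 and HELLS belong to a widely used list of S phase genes, and their levels are known to follow DNA replication. The other 41 genes of that list were all tested. Both deletions had 39 of them among their upregulated DEGs, where 11.2% of all genes tested were in ΔE2 and 14.7% in ΔSE12313-b. None was among the downregulated, where 8.36% and 7.83% of all genes were. The median log2 fold change was 2.70 and 2.90, beside 0.14 and 0.27 over all genes tested. By library, the median of the 41 genes against the control mean was 2.76, 2.53 and 2.90 in ΔE2 and 2.92, 2.81 and 2.80 in ΔSE12313-b. In the same libraries UHRF1 stood at 3.83, 3.32 and 3.91, and at 3.52, 3.32 and 3.27, so its lowest ΔE2 value fell in the clone with the lowest S phase median. HELLS (2.52 to 3.03 over the 6 clones) lay near the S phase median, DNMT1 (1.47 to 2.04) and EZH2 (1.30 to 1.56) under it. The study's own cell cycle assay found a lower percentage of S phase cells in clones of both deletions than in its control line. Its growth assay found that these clones proliferated more slowly. The part of the difference in S phase transcripts in the values of these genes was not tested.

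Partners and readers of DNA methylation were looked at as a list of 28 genes, 25 of them tested. The ΔE2 clones had 5 of these as upregulated DEGs, where 11.2% of all genes tested were, and the ΔSE12313-b clones 7, where 14.7% were. Neither had a downregulated one, where 8.36% and 7.83% of all genes were. The median log2 fold changes were 0.33 and 0.44, beside 0.14 and 0.27 over all genes tested. LIG1, the ligase that seals Okazaki fragments and recruits UHRF1, had a mean of 2.60 FPKM in the controls, 12.3 in ΔE2 and 15.6 in ΔSE12313-b (log2 2.20 and 2.54, limma adjusted p = 8.23e-07 and 4.13e-07). PCNA, the replication clamp that binds DNMT1, went from 63.3 to 258 and 276 FPKM, and CDCA7, which works with HELLS, from 1.80 to 8.33 and 8.38, and both are also among the S phase genes. TRDMT1 (DNMT2), a methyltransferase of transfer RNA and not of DNA, rose from 0.533 to 1.44 and 2.54 FPKM (log2 1.28 and 2.04), the first under 2-fold with a pseudocount of 1 (0.67).

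Of 10 further PRC2 genes 9 were tested, of which ΔE2 had 1 higher and 2 lower DEGs, and ΔSE12313-b had 2 of each kind. Over all genes tested, 11.2% were higher and 8.36% lower DEGs in ΔE2, and 14.7% and 7.83% in ΔSE12313-b. The median log2 fold changes were 0.15 and 0.45, beside 0.14 and 0.27 over all genes tested. PHF19 (PCL3), an accessory subunit that targets PRC2 to chromatin, had 12.1 and 11.5 FPKM in the controls, 47.7, 45.9 and 55.9 in ΔE2 and 51.2, 51.6 and 49.9 in ΔSE12313-b. It rose 4.17-fold (log2 2.06 ± 0.09, limma adjusted p = 1.80e-06) and 4.28-fold (2.10 ± 0.09, adjusted p = 1.46e-06). For the longest PHF19 transcript the log2 changes were smaller, 0.90 and 1.03, the first under 2-fold. Its relative PHF1 (PCL1) had 13.1 and 12.9 FPKM in the controls, 4.31, 5.78 and 4.63 in ΔE2 and 4.21, 4.26 and 5.07 in ΔSE12313-b. PHF1 fell to 2.63-fold lower (log2 −1.40 ± 0.14, limma adjusted p = 0.000131) and 2.85-fold lower (−1.51 ± 0.14, adjusted p = 6.79e-05). The histone-binding subunit RBBP7 rose in both, from 36.6 to 60.4 and 81.6 FPKM (log2 0.72 and 1.15), past 2-fold in ΔSE12313-b, though not when each library was centred (0.87) or with quantile normalization (0.66).

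Among 35 genes of PRC1, of the PR-DUB deubiquitinase and of the H3K27 demethylases, 33 could be tested. DEGs went both ways, 2 up and 2 down in the ΔE2 clones and 3 up and 3 down in the ΔSE12313-b clones. The shares over all genes tested were 11.2% up and 8.36% down in ΔE2, and 14.7% and 7.83% in ΔSE12313-b. The medians were 0.12 and 0.24, beside 0.14 and 0.27 over all genes tested. PCGF5 rose from a mean of 5.80 FPKM to 15.7 and 21.8 (log2 1.43 and 1.90), but its longest transcript changed by log2 0.11 (limma adjusted p = 0.346) and 0.60, so the call rests on the transcript that was kept. The chromodomain subunit CBX2 rose from 2.23 to 5.18 and 5.45 FPKM (log2 1.18 and 1.25), and its change was under 2-fold with a pseudocount of 1 (0.94 and 0.996) and, in ΔSE12313-b, when each library was centred (0.96). CBX7, another chromodomain subunit of PRC1, fell from 2.99 to 0.936 and 0.994 FPKM (log2 −1.58 and −1.50). KDM6B (JMJD3), which removes the mark that EZH2 sets, had 8.93 and 8.25 FPKM in the controls, 2.20, 1.99 and 2.27 in ΔE2 and 2.52, 2.73 and 2.11 in ΔSE12313-b. It fell to 3.85-fold lower (log2 −1.95 ± 0.14, limma adjusted p = 1.86e-05) and 3.42-fold lower (−1.77 ± 0.14, adjusted p = 2.39e-05). PCGF6 rose from 5.54 to 8.88 and 12.1 FPKM, past 2-fold in ΔSE12313-b (log2 1.11) but not when centred (0.82), with quantile normalization (0.80) or with a pseudocount of 1 (0.9998). SCML1 went in opposite directions, from 2.07 to 3.01 FPKM in ΔE2 (log2 0.51, limma adjusted p = 0.0239) and to 0.914 in ΔSE12313-b (−1.10, adjusted p = 0.000536, and −0.68 with a pseudocount of 1).

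Germline genes are a class known to be silenced by promoter DNA methylation in somatic cells, and HOX genes are the best known targets of Polycomb. Of 30 germline genes 7 were tested, with 2 upregulated DEGs in ΔE2, and 1 upregulated and 1 downregulated in ΔSE12313-b. Of all genes tested, 11.2% were upregulated and 8.36% downregulated DEGs in ΔE2, and 14.7% and 7.83% in ΔSE12313-b. MAGEA1 had 14.98 and 12.7 FPKM in the controls, 49.6, 45.03 and 53.4 in ΔE2 and 55.2, 48.7 and 44.8 in ΔSE12313-b (log2 1.83 and 1.83, limma adjusted p = 1.37e-05 and 1.10e-05). MOV10L1, a helicase of the piRNA pathway, rose in ΔE2 from a mean of 0.399 to 1.72 FPKM and was at 0.387 in ΔSE12313-b. It was under 0.5 FPKM in every control and ΔSE12313-b library. MOV10L1 thus passed the filter only through the ΔE2 clones, where it was high, and its call is no support for a change of the list. MAGEC2, at 8.47 and 7.999 FPKM in the controls, varied from 1.37 to 7.55 among the ΔE2 clones and was at 0.031, 0.102 and 0 in ΔSE12313-b. The other 4 tested genes, MAGEA3, MAGEA6, MAGEA12 and MAGEB2, rose in both deletions by less than 2-fold, and near-identical copies in this family make single members uncertain. With a pseudocount of 1 the ΔE2 change of MOV10L1 was under 2-fold (log2 0.96).

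Of 39 HOX genes 23 were tested, and the medians were −0.12 and −0.08, beside 0.14 and 0.27 over all genes tested. In ΔE2, HOXA11 was an upregulated DEG, from a mean of 0.516 to 1.21 FPKM, and HOXA3 (2.64 to 1.22), HOXB5 (1.43 to 0.651) and HOXB9 (0.988 to 0.2503) were downregulated. In ΔSE12313-b HOXB9 was the single DEG, at 0, 0.025 and 0.023 FPKM. HOXB9 was under 0.5 FPKM in every clone of both deletions and passed the filter only through the controls, where it was high. Its calls are thus no support for a change of the list. Among all genes tested, 11.2% were upregulated and 8.36% downregulated DEGs in ΔE2, and 14.7% and 7.83% in ΔSE12313-b. The ΔE2 calls depended on single libraries. Without control replicate 2, HOXA11 was at log2 0.86 (limma adjusted p = 0.0599), and it was at 0.95 when each library was centred, while without control replicate 1 HOXA3 was at −0.95, under 2-fold. HOXB9 had adjusted p values of 0.0719 and 0.0587 without control replicate 1 or 2. HOXB5 lost its call without either control replicate, without ΔE2 replicate 1 or 3 (log2 −0.75 without the latter, limma adjusted p = 0.0685) and without ΔSE12313-b replicate 1 or 2. With a pseudocount of 1 all 4 were under 2-fold in ΔE2, as was HOXB9 in ΔSE12313-b.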

How the data were processed

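RNA of 8 EA.hy926 samples (2 control, 3 ΔE2 and 3 ΔSE12313-b clones) was sequenced by the authors as rRNA-depleted, directional, single-end libraries. They trimmed the reads with Trim Galore 0.4.4, mapped them to GRCh37 (hg19) with STAR 2.5.4b, and deposited 1 table of FPKM for 65572 RefSeq transcripts. The program that made this table, its RefSeq release and its handling of strand are not given in the sources used here. For their own tests the authors counted reads on Gencode genes with featureCounts, a step that does not describe this RefSeq table, and those counts were not used here. FPKM times transcript length came out as whole reads, within 0.1 read, for 100% of the values checked, which gave 12067556 to 19101112 reads per library.

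The transcript of highest mean level stood for its symbol. Testing covered genes that reached 0.5 FPKM in 2 libraries or more, with limma 3.58.1 in R 4.3.3 on log2(FPKM + 0.1), 3 groups in 1 model, empirical Bayes with trend, two-sided, Benjamini-Hochberg over 13790 genes. DEGs needed both an adjusted p under 0.05 and a 2-fold change. Ratios of FPKM were compared by an exact permutation test. The script was tested on simulated data. Replicate numbers do not pair the samples.

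Named genes were the 10 members, the paralogs EZH1, TET1, UHRF2 and DNMT3L, the DEGs with the largest rises and falls of each pathway list (up to 4 per direction and deletion), and up to 3 of the germline and HOX lists. The members, lists and tests were chosen with earlier results of these data known. No set test was run. In all, 21 alternatives were tried, among them other pseudocounts, filters, centring, quantile normalization, voom on the recovered reads and leaving out each library. Promoters came from RefSeq (GRCh38.p14), and no coordinates were converted.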

Additional observations from a re-analysis of the deposited data

Results flagged for a closer look

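The effects of the deletions against control differed, by limma's test of ΔE2 against ΔSE12313-b with Benjamini-Hochberg adjustment over all genes tested, for 10 of the 33 named genes that were tested, where 26% of all genes tested differed. Apart from the members and paralogs, the named genes were picked as DEGs of either deletion, which favours genes that differ between the deletions. The count is thus no result about these genes. Of the 10 core genes, EED was higher in ΔE2, by 0.5303 on the log2 scale (adjusted p = 0.00669). Of the DNA methylation partners, LIG1 was lower in ΔE2 with −0.3449 (adjusted p = 0.0131), and so was TRDMT1 with −0.7617 (adjusted p = 0.0201). So were the Polycomb genes RBBP7 (−0.4337, adjusted p = 0.00196), PCGF5 (−0.4628, adjusted p = 0.0204) and PCGF6 (−0.4449, adjusted p = 0.0212), while SCML1 was higher in ΔE2 by 1.6092 (adjusted p = 0.000523). Of the germline and HOX genes, MOV10L1 was higher in ΔE2 by 1.8956 (adjusted p = 0.00123), MAGEC2 by 4.49 (adjusted p = 0.00161) and HOXB9 by 1.5552 (adjusted p = 0.026). MOV10L1 passed the filter on low values only through the ΔE2 clones, and HOXB9 only through the controls. The HOXB9 difference did not pass with a pseudocount of 1 (adjusted p = 0.0784), quantile normalization (0.117), the replicate block (0.0597), the 2 groups alone (0.0504), or without ΔE2 replicate 3 (0.0856) or ΔSE12313-b replicate 1 (0.0567). The sizes for MAGEC2 and HOXB9 depend on the pseudocount, since both are at or near 0 in the ΔSE12313-b clones. PCGF5 and PCGF6 lie on chromosome 10 within 10 Mb of HELLS, where the median gene was at −0.49 in this contrast, and the part of that region in their values was not tested. Groups of 2 and 3 libraries are too small for a test of single outlying libraries.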

How the results depend on the processing

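Under every alternative no member was a downregulated DEG, and the number of upregulated ones stayed between 4 and 6 in ΔE2 and between 4 and 7 in ΔSE12313-b. Without single libraries it ranged from 5 to 6 in ΔE2. The upregulated and downregulated DEGs among all genes then ranged from 1415 to 1618 and from 884 to 1262 in ΔE2, from 1916 to 2083 and from 842 to 1103 in ΔSE12313-b, and from 165 to 243 and 313 to 435 between the deletions. A pseudocount of 1 left 653 (ΔE2) and 593 (ΔSE12313-b) downregulated DEGs, and 100 higher and 140 lower ones between the deletions. A mean FPKM of at least 1 left 673 downregulated DEGs in ΔSE12313-b, and centring each library left 1201 upregulated. With a limit of 1.5-fold the counts were 3109 and 1945 in ΔE2, 4124 and 1678 in ΔSE12313-b, and 492 and 1139 between the deletions. An adjusted p under 0.01 left 122 genes higher in ΔE2 than in ΔSE12313-b. The replicate numbers did not pair the samples, and a fit with the replicate block gave 6 and 5 upregulated members, and 1474 and 1056 DEGs in ΔE2 and 1962 and 1000 in ΔSE12313-b. Values near 0 changed sign. DNMT3A in ΔE2 was −0.0118 centred, −0.007 with quantile normalization and from −0.0108 to 0.2274 without single libraries. In the same order, TET3 in ΔE2 was −0.1544, −0.0331 and from −0.0531 to 0.0852, TET2 in ΔSE12313-b −0.2319, −0.0073 and from −0.0324 to 0.1995, and SUZ12 between the deletions 0.1247, 0.1158 and from −0.0454 to 0.0266. MOV10L1 in ΔSE12313-b was 0.32 with quantile normalization and from −0.26 to 0.23 without single libraries. The log2 ratio between clones and controls without single libraries ranged from 2.64 to 2.82 for EZH2/EZH1, 0.48 to 0.71 for EZH2/EED, 0.81 to 0.95 for EZH2/SUZ12, 1.81 to 1.87 for UHRF1/DNMT1, and 0.83 to 1.17 for DNMT3B/DNMT3A, where p = 0.143 is the smallest that the exact test allows without a control library. The cause of these changes was not tested. Among the members the lowest read count was 63, on DNMT3B in a control library.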
